A study of Mus musculus with 40 samples.

Results

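Calcium release from internal stores, and its return to them, was followed here through 10 genes whose products release calcium from the endoplasmic reticulum, pump it back or sense its loss there. They are the IP3 receptors Itpr1, Itpr2 and Itpr3, the ryanodine receptors Ryr1, Ryr2 and Ryr3, the SERCA pumps Atp2a2 and Atp2a3, and the store sensors Stim1 and Stim2. The genes were taken by symbol, by a rule that uses none of their values although earlier results of these data were known, and they are 10 of the 24060 rows of a count table from mouse striatum. All 10 passed the filter on low counts in every comparison.

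The endoplasmic reticulum is the main calcium store of most cells. IP3 receptors open when receptor signalling through phospholipase C makes IP3, ryanodine receptors open when cytosolic calcium rises, SERCA pumps refill the store, and STIM proteins sense an empty store and open Orai channels of the plasma membrane. In astrocytes, calcium signals in the cell body depend largely on the type 2 IP3 receptor, whereas the type 1 receptor is the main form in many neurons, among them the medium spiny neurons that make up most of the striatum.

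RNA came from 10 groups with 4 libraries each, all from adult striatum. RiboTag tags ribosomes of 1 cell type with an HA-marked RPL22 delivered by AAV, so that the immunoprecipitate (IP) holds RNA bound to these ribosomes and the input holds RNA of the whole lysate. In wild-type C57/BL6NTac mice, AAVs were injected into the dorsal striatum weeks after birth. The Syn IP libraries carried the neuronal hSYN1 promoter, and their inputs are labelled WT input. The other C57/BL6NTac IP and input libraries are labelled Control, and they were taken as the astrocyte RiboTag (GfaABC1D promoter) from the study's methods, as the labels name no AAV for them. The SAPAP3 cohort comprised WT mice, labelled C57/BL6J, and mice of that strain with a whole-body knockout (KO) of Dlgap3, the gene of the postsynaptic scaffold SAPAP3, which are used as a model of obsessive–compulsive disorder. These mice received the RiboTag AAV when several months old. Neither the labels nor the methods name the cell type of their IP. A further 4 WT and 4 KO libraries hold bulk striatal RNA without IP. They are labelled C57/BL6NTac, and 1 animal number occurs once as WT and once as KO.

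The libraries held between 23438112 and 84109800 counted reads, and inputs were less deep than the IPs of the same cohort. The summed level of 10 astrocyte markers was 32300 to 34600 CPM (reads per 1000000 counted reads of a library) in the astrocyte IP and 3790 to 3950 CPM in its input. Astrocyte markers were also higher in both IPs of the SAPAP3 cohort, with all 10 of 10 called in WT and in KO. In the neuron IP, all 10 neuron markers were higher than in input at an adjusted p-value under 0.05, and 3 of them passed the fold change limit. The IPs were not pure by these lists. In the astrocyte IP, 8 of 10 interneuron markers and 8 of 8 ependymal markers were called higher than in input. The summed level of the 10 neuron markers was 4110 to 4430 CPM there and 6430 to 6730 CPM in its input. By the adjusted p-value alone, 3 of these markers rose and 6 fell. Astrocyte markers remained in the neuron IP, at 3500 to 3820 CPM summed, against 6090 to 6500 CPM in its input. Of these 10 markers, 2 were called lower there, and by the adjusted p-value alone 1 rose and 7 fell. The astrocyte cohort passed a low limit on summed reads of Y chromosome genes in all libraries and had no Xist above 1 CPM. The neuron cohort had Xist above 1 CPM and no library past that limit for Y chromosome genes, so the cohorts differ in sex.

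Levels of different genes were set side by side as FPKM, the CPM divided by exon length in kilobases, which corrects for the length of the exons. Atp2a2 and Itpr1 were the most abundant members in all 10 groups, by far. Atp2a2, which encodes SERCA2, had mean FPKM between 205 in the neuron cohort input and 284 in the neuron IP. Itpr1 ranged from 139 FPKM in the astrocyte IP to 311 FPKM in the neuron IP. The neuron IP was the 1 group in which the mean of Itpr1 was above that of Atp2a2. Ranges of these 2 genes overlapped in the astrocyte cohort input, the SAPAP3 cohort WT input and bulk WT, so their order cannot be told there. Ryr2, Ryr3, Stim1 and Stim2 formed a middle tier, with mean FPKM between 7.68 and 28.4. Ryr1 had 1.79 to 7.58 FPKM, Atp2a3 had 0.458 to 1.98 FPKM, and Itpr3 was last in every group with 0.0865 to 0.691 FPKM.

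Itpr2 differed between the cell types in level and in its place in this order. In the astrocyte IP it had 11.2 FPKM, and its range overlapped that of Ryr2 (11.4 FPKM) just above it. In the neuron IP it had 1.48 FPKM and stood below all members but Atp2a3 and Itpr3.

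**Figure D1:**
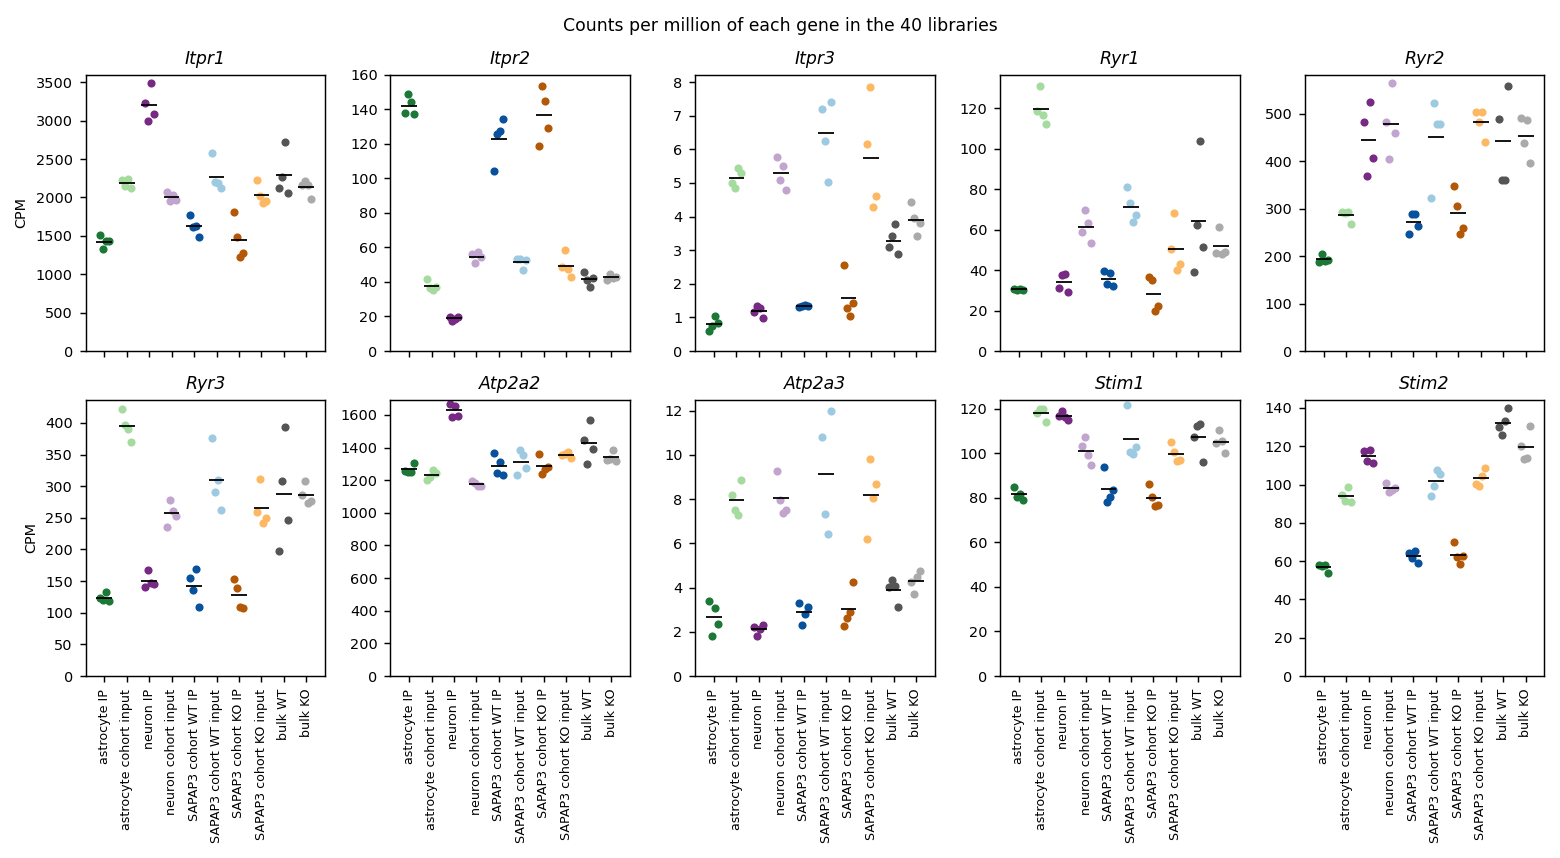
CPM of each of the 10 genes (vertical axes, linear and from 0) in each of the 40 libraries (points), with group means as black bars. Itpr2 separates the astrocyte IP (137 to 149 CPM) from the neuron IP (17.1 to 19.9 CPM), while Itpr3 and Atp2a3 are below their inputs in every IP.

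The first question was which of these genes were enriched on the tagged ribosomes of a cell type. IP was set against input by the quasi-likelihood test of edgeR, with TMM scaling and Benjamini-Hochberg adjustment over all genes. Calls needed an adjusted p-value below 0.05 together with a log2(FC) beyond 1 in either direction. In the astrocyte IP, 1 of the 10 genes was called higher than in input, against 13.4% of all genes tested, and 4 were called lower, against 13.5% of all genes. By the adjusted p-value alone 2 rose and 8 fell, where 80.4% of all genes changed. The median log2(FC) was -0.45 over the 10 genes and -0.03 over all genes tested. In the neuron IP, 0 genes were called higher, against 0.420% of all genes, and 3 were called lower, against 15.8%. By the adjusted p-value alone 4 rose, 5 fell and Ryr2 did not pass, where 71.3% of all genes changed, and the median was -0.23 beside 0.00 over all genes. A lower value in an IP cannot tell fewer cells of a type in the capture from less RNA per cell.

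Among the IP3 receptors, Itpr2 rose in the astrocyte IP and fell in the neuron IP. Its 4 astrocyte IP libraries had 138, 149, 144 and 137 CPM, and the 4 inputs of the same mice had 41.5, 36.6, 35.4 and 36.9 CPM. The groups lay far apart, and the IP was above the input in 4 of 4 mice. The log2(FC) was 2.14 ± 0.0522 (SE, n = 4 against 4), 4.41-fold, with an adjusted p of 2.08e-11 by edgeR's quasi-likelihood test. Neuron IP libraries had 19.9, 17.1, 18.6 and 19.7 CPM, and their inputs had 56.1, 50.8, 57.2 and 54.6 CPM. Here each IP library was below each input. The log2(FC) was -1.33 ± 0.0571 (adjusted p = 6.91e-08, edgeR's quasi-likelihood test).

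Itpr1, which encodes the receptor found at high level in striatal projection neurons, showed the other pattern. Its neuron IP libraries had 3228, 3000, 3487 and 3080 CPM, against 2065, 1958, 2027 and 1969 CPM in the inputs. All 4 IP libraries were above all inputs, with a log2(FC) of 0.88 ± 0.0636 (adjusted p = 1.27e-06, edgeR's quasi-likelihood test). This was below the limit of 1, ranked 133 of the 16198 genes tested, and passed the limit with ribosomal protein scaling (1.31). In the astrocyte IP, Itpr1 had 1506, 1330, 1435 and 1428 CPM, and the inputs had 2229, 2144, 2246 and 2119 CPM. The IP was lower in 4 of 4 mice in CPM, although higher when scaled to ribosomal protein genes (described further on), and Itpr1 was not called, with a log2(FC) of -0.395 ± 0.0455 (adjusted p = 8.82e-06, edgeR's quasi-likelihood test).

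Itpr3, the type 3 receptor, fell in both IPs. It had 0.609 to 1.03 CPM in the astrocyte IP, which is 29 to 50 reads per library, and 4.86 to 5.43 CPM in the input. The neuron IP had 0.981 to 1.33 CPM and its input 4.8 to 5.78 CPM. The log2(FC) was -2.44 in the astrocyte IP and -1.95 in the neuron IP, the lowest value of the 10 genes in each (adjusted p = 4.59e-08 and 5.91e-07, edgeR's quasi-likelihood test). Markers of microglia and endothelium moved with it. All 10 microglial markers were called lower in both IPs, with summed levels of 52.6 to 59.9 CPM in the astrocyte IP and 957 to 1190 CPM in its input, and 0 of them were at 0. Their part in the level of Itpr3 was not tested.

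Of the ryanodine receptors, Ryr1 and Ryr3 fell in both IPs, and Ryr2 fell in the astrocyte IP, where ribosomal protein scaling turned its sign, and did not pass in the neuron IP. Ryr1, best known as the release channel of skeletal muscle, had 30.4, 30.2, 30.9 and 30.2 CPM in the astrocyte IP and 119, 131, 117 and 112 CPM in the inputs. Its log2(FC) of -1.75 ± 0.0490 passed the limits (adjusted p = 5.42e-11, edgeR's quasi-likelihood test). Ryr3, a form found in the brain and in smooth muscle, had 124, 120, 133 and 118 CPM in the astrocyte IP, below inputs of 421, 397, 391 and 370 CPM. It was called too, with a log2(FC) of -1.45 ± 0.0518 (adjusted p = 3.65e-10, edgeR's quasi-likelihood test). Both were also lower in the neuron IP than in input, by less than the limit, with log2(FC) of -0.64 for Ryr1 and -0.57 for Ryr3. The inputs of the cohorts were themselves unlike, as Ryr1 had 112 to 131 CPM in the astrocyte cohort input and 53.6 to 69.9 CPM in the neuron cohort input.

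Ryr2, the cardiac form that is also widely expressed in brain, had a smaller shift than the other two with TMM scaling, and the largest of the 3 in the astrocyte IP with ribosomal protein scaling (0.83). In the astrocyte IP it had 187, 205, 190 and 192 CPM, below inputs of 292, 291, 292 and 269 CPM, and its log2(FC) was -0.34 ± 0.0435 (adjusted p = 1.94e-05, edgeR's quasi-likelihood test). Its neuron IP libraries had 482, 369, 525 and 406 CPM, and the inputs had 483, 405, 564 and 459 CPM. These groups overlapped, and the log2(FC) of 0.11 did not pass (95% interval -0.18 to 0.40, adjusted p = 0.468, edgeR's quasi-likelihood test). IP over input within a number ranged from 0.885 to 0.998 in CPM, without TMM factors. With the number as a replicate block the log2(FC) of 0.10 ± 0.0350 passed the adjusted p-value (0.016, edgeR's quasi-likelihood test).

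Of the pump genes, Atp2a2 rose in both IPs and Atp2a3 fell in both. Atp2a2 had 1669, 1590, 1657 and 1593 CPM in the neuron IP and 1194, 1181, 1166 and 1164 CPM in the inputs. The groups did not overlap, with a log2(FC) of 0.67 ± 0.0438 (adjusted p = 6.86e-07, edgeR's quasi-likelihood test), which ranked 491 of 16198 genes. Atp2a2 had 1257, 1248, 1252 and 1308 CPM in the astrocyte IP, and the inputs had 1199, 1217, 1264 and 1245 CPM. These CPM overlapped, and after TMM scaling the log2(FC) was 0.26 ± 0.0343 (adjusted p = 2.57e-05, edgeR's quasi-likelihood test). Atp2a3 encodes SERCA3, known from blood cells, endothelium and some epithelia. It had 1.82 to 3.40 CPM in the astrocyte IP against 7.27 to 8.87 CPM in the input, and 1.82 to 2.30 CPM in the neuron IP against 7.35 to 9.29 CPM. Both differences were called, with log2(FC) of -1.35 and -1.72. All 10 endothelial markers also had lower levels at an adjusted p-value under 0.05 in each IP, with summed levels of 19.0 to 21.6 CPM in the astrocyte IP and 143 to 180 CPM in its input. None was at 0. All 10 microglial markers were called lower in both IPs too, and the part of either set in the level of Atp2a3 was not tested.

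The store sensors moved together, up in the neuron IP and down in the astrocyte IP (up there too with ribosomal protein scaling), by less than the limit of 1 in all 4 cases. Stim1 had 84.8, 80.2, 81.8 and 79.2 CPM in the astrocyte IP and 118, 120, 120 and 114 CPM in the inputs. It had 117, 119, 116 and 115 CPM in the neuron IP against 103, 107, 99.0 and 94.9 CPM. Neither pair of groups overlapped, and the log2(FC) were -0.31 and 0.41 (adjusted p = 1.08e-05 and 1.97e-05, edgeR's quasi-likelihood test). Stim2, the form that responds to smaller losses of store calcium, had 57.8, 57.4, 57.8 and 54.0 CPM in the astrocyte IP against 94.5, 91.3, 99.0 and 90.8 CPM. The neuron IP had 118, 113, 118 and 111 CPM of Stim2, against 101, 96.0, 97.3 and 98.0 CPM. The groups were again apart, with log2(FC) of -0.505 and 0.43 (adjusted p = 5.72e-07 and 5.09e-06, edgeR's quasi-likelihood test).

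**Figure D2:**
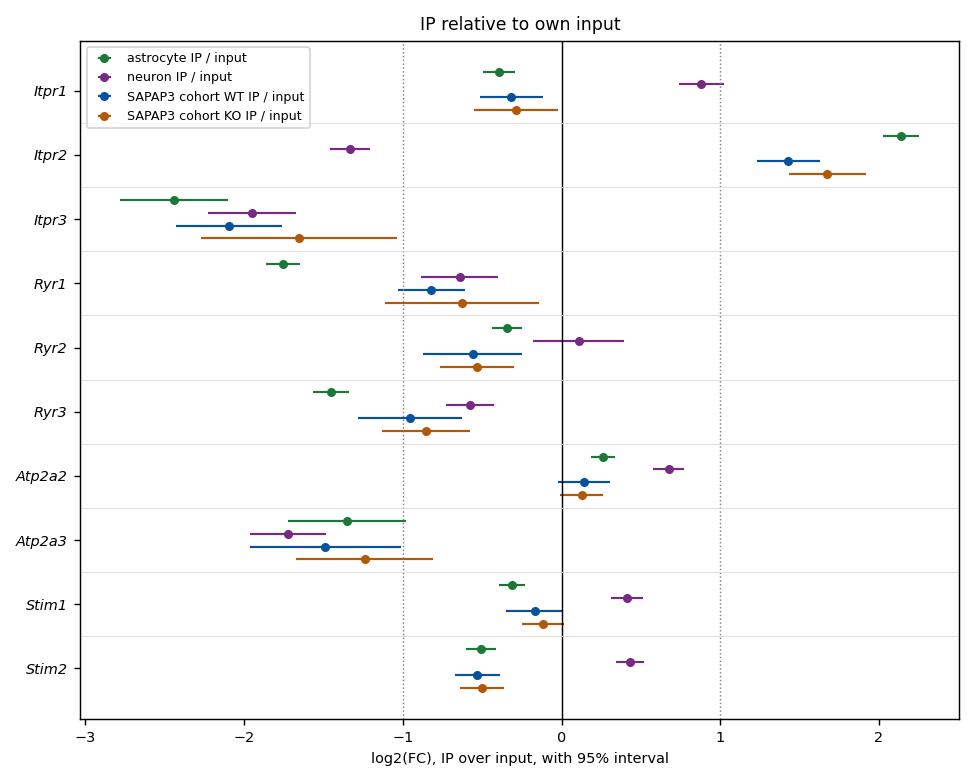
log2(FC) of IP over input (horizontal axis) with 95% intervals for each gene in the 4 IP comparisons, 4 libraries against 4 in each; dotted lines mark the limits of -1 and 1. Itpr2 is right of the limit in the astrocyte and SAPAP3 cohort IPs and left of it in the neuron IP. The estimates of Itpr3 and Atp2a3 are left of -1 throughout, while the intervals of Atp2a3 in the astrocyte and KO IPs cross -1.

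All these values are relative to the other genes of a library. When the libraries were scaled to 80 ribosomal protein genes instead, the median log2(FC) of all genes was 1.15 in the astrocyte IP, 0.43 in the neuron IP, 0.67 in the SAPAP3 cohort WT IP and 0.58 in its KO IP. With this scaling some signs turned. Itpr1, Ryr2, Stim1 and Stim2 were then higher in the astrocyte IP than in input, with log2(FC) of 0.78, 0.83, 0.86 and 0.67, and the same 4 genes turned positive in both SAPAP3 cohort IPs. Itpr2 stayed called higher in the astrocyte IP, whereas its value in the neuron IP was -0.90 and no longer past the limit. Itpr1 (1.31) and Atp2a2 (1.11) were then called higher in the neuron IP, and Atp2a2 (1.44) in the astrocyte IP. Calls of Itpr3 as lower remained in all 4 IPs, and those of Ryr1, Ryr3 and Atp2a3 in the astrocyte IP did not remain. The falls of Ryr1 and Ryr3 in the neuron IP no longer passed (-0.21 and -0.14).

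The second question was whether the enrichment differed between the cell types. An interaction term tested the log2(FC) of the neuron IP over its input minus that of the astrocyte IP over its input, without a fold change limit. It passed for 9 of the 10 genes, while 70.1% of all genes tested passed. The call of Itpr3 was lost in 8 of 16 fits with 1 library left out, given by library in the closing section, and that of Ryr2 was lost with the FPKM filter (0.31, adjusted p = 0.0666, edgeR's quasi-likelihood test). Itpr2 had the only negative difference among them, -3.47 ± 0.0818 (adjusted p = 1.66e-15, edgeR's quasi-likelihood test). The positive differences were 1.27 for Itpr1, 1.11 for Ryr1, 0.94 for Stim2, 0.88 for Ryr3, 0.72 for Stim1, 0.49 for Itpr3, 0.45 for Ryr2 and 0.41 for Atp2a2. With ribosomal protein scaling, those of Itpr3, Ryr2, Atp2a2 and Stim1 turned negative. Those of Ryr3 (0.13) and Stim2 (0.19) then no longer passed (adjusted p = 0.305 and 0.0649, edgeR's quasi-likelihood test). Atp2a3 did not pass, at -0.37 with a 95% interval of -0.82 to 0.07 (adjusted p = 0.121, edgeR's quasi-likelihood test). It passed with ribosomal protein scaling, at -1.11 (adjusted p = 5.54e-05, edgeR's quasi-likelihood test). Unlike inputs enter these differences. Ryr1 had mean levels of 30.4 CPM in the astrocyte IP and 34.1 CPM in the neuron IP, and 119.6 and 61.4 CPM in their inputs. Ryr3 had 123.8 and 149.9 CPM in these IPs, and 394.8 and 257.1 CPM in the inputs. The cohorts differ in sex and in their inputs as well as in tagged cell type, and these cannot be told apart.

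The make-up of each family showed the same contrasts in another unit, as a share of the summed FPKM of the family. Itpr2 made up 7.46% ± 0.591 (SD, n = 4) of the IP3 receptor FPKM in the astrocyte IP and 1.37% ± 0.0924 in its input. In the neuron IP its share was 0.474% ± 0.0381, and in that input 2.15% ± 0.0753. Itpr1 thus remained the main IP3 receptor transcript in the astrocyte IP as well, with 92.5% ± 0.597. Neuron markers also remained in this IP (4110 to 4430 CPM summed), and their part in the level of Itpr1 was not tested. Astrocyte markers remained in the neuron IP (3500 to 3820 CPM summed), and their part in the level of Itpr2 there was not tested. Ryr2 held 54.2% of the ryanodine receptor FPKM in the astrocyte IP, where the input had 34.4%, and Ryr3 was the largest share of that input with 50.1%. Ryr2 was at 69.3% in the neuron IP and 58.5% in its input. Atp2a2 held at least 98.8% of the FPKM of the 2 pump genes in each library. Stim1 and Stim2 were near balance, with Stim1 at 57.9% in the astrocyte IP and 49.3% in the neuron IP. Each of these IP and input pairs that did not overlap had the smallest two-sided p of an exact permutation test of 4 against 4, 0.0286, and 0.0615 after adjustment over 56 such tests, so no share passed 0.05.

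**Figure D3:**
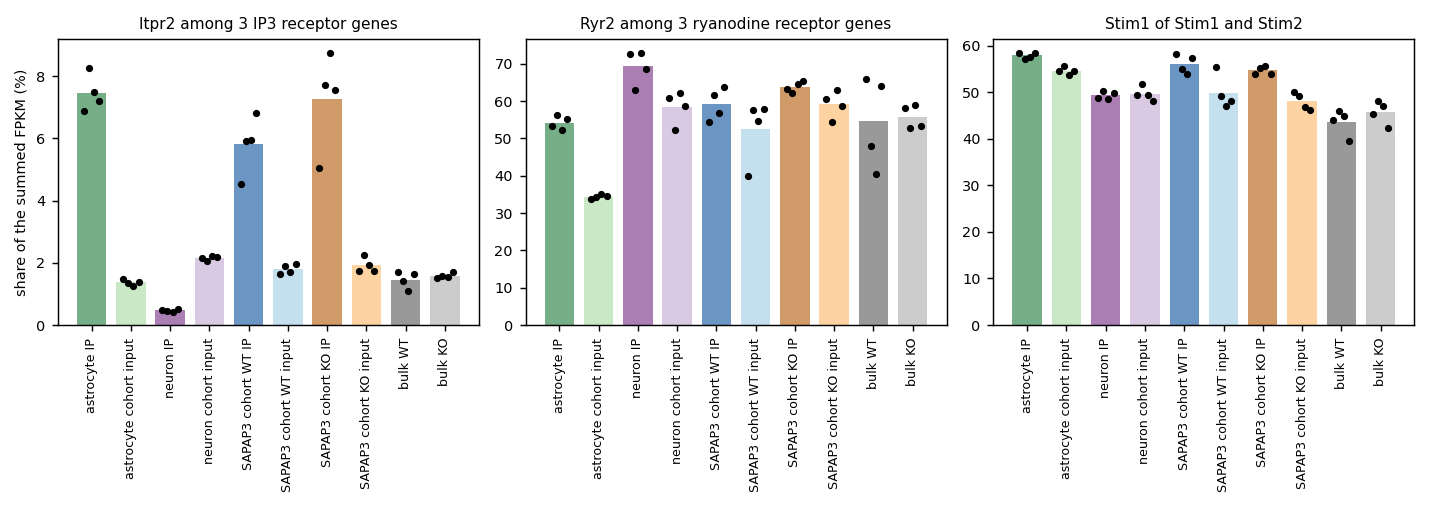
Share (%, vertical axes from 0) of Itpr2, Ryr2 and Stim1 in the summed FPKM of their families; bars are means of 4 libraries and points are single libraries. The share of Itpr2 is 4.53% to 8.74% in the 12 IP libraries of the astrocyte and SAPAP3 cohorts and below 2.3% elsewhere.

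In the SAPAP3 cohort, IP and input of the same mice were compared within each genotype. In WT mice 1 member was called higher and 2 were called lower, against 10.9% and 12.1% of all genes, and by the adjusted p-value alone 8 changed, against 67.3%. In KO mice the counts were again 1 higher and 2 lower, against 12.3% and 11.5%, and 8 changed by the adjusted p-value alone, against 71.9%. Itpr2 was the gene called higher. Its WT IP libraries had 104, 125, 128 and 134 CPM and the inputs 53.4, 53.1, 46.7 and 52.7 CPM, a log2(FC) of 1.43 ± 0.0888. The KO IP libraries had 119, 153, 145 and 129 CPM and the inputs 48.8, 58.3, 47.2 and 43.0 CPM, a log2(FC) of 1.67 ± 0.110. No IP library was below an input library in either genotype (adjusted p = 1.16e-06 and 2.91e-07, edgeR's quasi-likelihood test).

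Itpr3 and Atp2a3 were the genes called lower in both genotypes. The log2(FC) of Itpr3 was -2.09 in WT and -1.65 in KO, and that of Atp2a3 was -1.49 and -1.24, which lost both calls with ribosomal protein scaling (-0.76 and -0.67). Ryr3 was close to the limit in WT, at -0.95 ± 0.146, and passed it without WT input replicate 4 (-1.02), without WT IP replicate 3 (-1.06) or with the FPKM filter (-1.01). Stim1 and Atp2a2 did not pass the unpaired test in either genotype, with adjusted p between 0.0822 and 0.110 by edgeR's quasi-likelihood test. The CPM of Stim1 in IP over input was 0.770 to 0.811 in the 4 WT mice and 0.789 to 0.820 in the 4 KO mice. With the mouse as a replicate block Stim1 passed, with log2(FC) of -0.17 and -0.12 (adjusted p = 0.0157 and 0.0291, edgeR's quasi-likelihood test), and Atp2a2 did not (adjusted p = 0.107 and 0.0547). Atp2a2 passed with the DESeq2 Wald test in both genotypes (adjusted p = 0.0224 and 0.00675). The sign of Stim1 turned with ribosomal protein scaling. Oligodendrocyte markers, which were not enriched in the astrocyte IP of the other cohort (median log2(FC) -0.16), had a median log2(FC) of 0.76 in the WT IP and 0.77 in the KO IP, with summed levels of 7100 to 11100 CPM in the IPs and 6180 to 7180 CPM in the inputs. Ependymal markers were called higher for 8 of 8 genes in both. The part of these cells in the members' values was not tested.

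Other genes of store calcium handling were described from 7 lists. Of all genes tested, 13.4% were called higher and 13.5% lower in the astrocyte IP, and 0.420% and 15.8% in the neuron IP. The median log2(FC) of all genes tested was -0.025 and -0.002. Partners of the store channels, which anchor or gate them, had 4 of 17 tested genes called higher in the astrocyte IP and 3 called lower, with a list median of 0.19. Junctophilins, which hold the store membrane close to the plasma membrane, moved in both directions there, with Jph2 at 2.25 and Jph3 and Jph4 at -1.17 and -1.08. The scaffold Homer3 had a log2(FC) of 1.74. Of 18 partners, 0 were called higher in the neuron IP and 1, Itprip (-1.32), was called lower, with a median of 0.06. Homer2 had -0.63 there, and Calm2, a calmodulin gene whose reads may be split with near-identical copies, had 0.85.

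Genes that make or break down IP3 had 6 of 16 called higher and 3 called lower in the astrocyte IP, with a median of 0.15. The phospholipases Plcd4 and Plcd1 led with 2.52 and 2.35, and Plcb2 (-2.0) and Plcg2 (-1.27) were lowest. Plcg2 alone was called in the neuron IP, at -2.50, and the list median was 0.11. Plcb1 (0.79) and the IP3 kinase Itpka (0.67) rose there by less than the limit, and the IP3 kinase Itpkb fell (-0.75).

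For store-operated entry, 1 of 10 genes was called higher in the astrocyte IP and 2 lower, with a median of -0.12. Saraf, a brake on STIM, had 1.06, and the channel gene Orai1 had 0.91, whereas Orai2 (-1.53) and the STIM–Orai regulator Cracr2b (-1.76) fell. The neuron IP had 0 of 10 called higher and 2 lower, Orai1 (-1.08) and Cracr2b (-2.35), with a median of -0.31. Trpc1 and Saraf rose there by 0.46 and 0.38. Of the regulators of the pumps, 3 were tested in the astrocyte IP, with a median of -0.34. Pln, the inhibitor phospholamban, was called lower (-2.68), Tmem203 had -0.34 and Tmx1, a reductase that acts on SERCA2, had 0.61. The neuron IP had 0 of 5 called, the median was 0.14, and Tmx1 rose by 0.14.

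Calcium-binding proteins of the store lumen had 4 of 12 genes called higher and 0 lower in the astrocyte IP, with a median of 0.54. Rcn2 (1.71) and Calu (1.21) led, while the calsequestrins Casq1 and Casq2 had -0.51 and -0.28. The neuron IP had 0 called higher and 1, Casq1 (-1.51), lower, with a median of 0.34, and Casq2 and Rcn1 had 0.76 and 0.75. None of the 7 genes of calcium extrusion at the plasma membrane was called in either IP by edgeR, although by the adjusted p-value alone 2 rose and 4 fell in the astrocyte IP and 5 rose in the neuron IP. Their median was -0.23 in the astrocyte IP, with Atp2b4 at 0.63 and Slc8a3 at -0.66, and 0.43 in the neuron IP, with Atp2b1 at 0.83 and Atp2b2 at 0.65. Slc8a1 had 0.47 and Slc8a2 had -0.46 in the astrocyte IP.

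Of 10 genes of mitochondrial calcium transport (the list named mitochondrial calcium uptake), the sodium–calcium exchanger gene Slc8b1, which is not itself an uptake gene, was called higher in the astrocyte IP (1.86) and lower in the neuron IP (-1.22). No other gene of this list was called in these comparisons, and its medians were 0.08 and 0.33. Micu2 had 0.46, Micu3 had -0.35 and Smdt1 had -0.21 in the astrocyte IP. Vdac1 had 0.63 in the neuron IP.

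**Figure D4:**
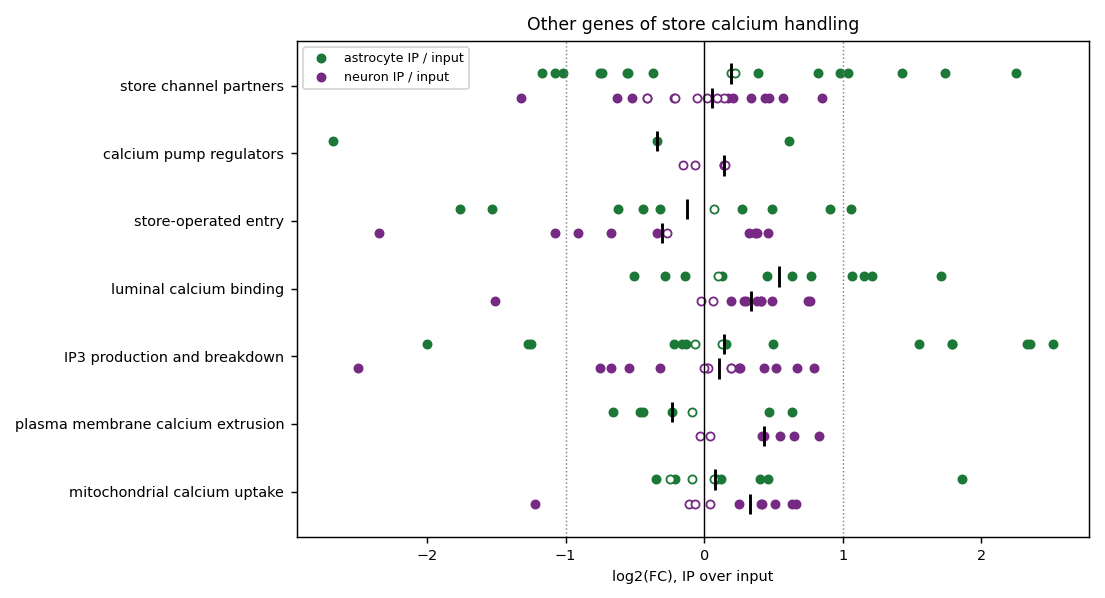
log2(FC) of IP over input (horizontal axis) of the tested genes of 7 lists in the astrocyte (green) and neuron (purple) IP; filled points have an adjusted p-value under 0.05, open points do not, black bars are list medians and dotted lines are the limits. The astrocyte values of the IP3 list run from -2.0 to 2.52, and no neuron value lies above 0.85.

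The last question was whether the loss of SAPAP3 changed these genes. Dlgap3 itself, given first as a check of the labels, had 154 to 212 CPM in the WT IP and 49.8 to 87.2 CPM in the KO IP. It had 376 to 514 CPM in the WT input and 166 to 200 CPM in the KO input, and 232 to 386 CPM in bulk WT and 144 to 161 CPM in bulk KO. The groups did not overlap, and reads remained in the KO. The log2(FC) was -1.40, -1.19 and -1.14, with adjusted p of 0.0283, 0.00698 and 0.318 by edgeR's quasi-likelihood test.

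None of the 10 genes passed an adjusted p-value under 0.05 by edgeR between KO and WT, where 0.0263% of all genes passed in the IP, 0.00641% in the input and 0.00% in bulk striatum. At an unadjusted p under 0.05, 0 members passed in the IP, 1 in the input and 1 in bulk, beside 399, 869 and 792 genes in all. The DESeq2 Wald test called 8, 8 and 17 genes, and 0 members in each. The interaction of genotype with IP over input also passed for 0 members, and for 0.00% of all genes, with 203 genes and 0 members at an unadjusted p under 0.05. The DESeq2 Wald test called 1 gene there, which was no member.

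Ryr1 was the member with the largest difference between genotypes in each of the 3 comparisons. Its KO input libraries had 50.5, 68.4, 39.8 and 43.2 CPM, and the WT inputs had 81.3, 73.2, 63.6 and 67.0 CPM. KO replicate 2 fell within the WT range and the other 3 were below it. The log2(FC) was -0.47 ± 0.153 (95% interval -0.81 to -0.13), with an adjusted p of 0.735 by edgeR's quasi-likelihood test. IP and input come from the same mice, so the IP value of -0.32 ± 0.190 is no second cohort. In bulk striatum the value was -0.33 ± 0.257, with 39.2, 62.5, 104 and 51.3 CPM in WT and 48.7, 61.1, 48.1 and 49.1 CPM in KO. It rested on WT replicate 3, 1 of 2 bulk WT libraries with Xist above 1 CPM beside Y chromosome reads, and without that library it was 0.01.

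Stim2 was the member with an unadjusted p under 0.05 in bulk striatum. It had 130, 126, 133 and 140 CPM in bulk WT and 120, 114, 114 and 131 CPM in bulk KO. The ranges overlapped through KO replicate 4, and the log2(FC) was -0.17 ± 0.0614 (adjusted p = 0.984, edgeR's quasi-likelihood test). In the SAPAP3 cohort the value of Stim2 was 0.04 in the IP and 0.05 in the input.

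The intervals differed in width between the members. In the IP the SE was largest for Itpr3 (0.259), Atp2a3 (0.201) and Ryr1 (0.190), the members of lowest FPKM there. In bulk the width did not follow the level, with an SE of 0.257 for Ryr1, 0.177 for Ryr3 and 0.123 for Itpr3. The 95% interval of the KO over WT log2(FC) of Atp2a2 was -0.14 to 0.17 in the IP, -0.08 to 0.23 in the input and -0.29 to 0.06 in bulk. For Itpr2 it was -0.07 to 0.41 in the IP, with 0.17 as the estimate, and for Itpr1 it was -0.42 to 0.13. It was widest in the IP for Itpr3, from -0.32 to 0.83, where the estimate of 0.25 fell to -0.08 without KO IP replicate 1. Microglial markers were higher in the KO IP than in the WT IP without passing the test (median log2(FC) 0.60, summed levels 73.8 to 166 CPM against 67.5 to 104 CPM), and their part in Itpr3 was not tested. No gene of the 7 pathway lists passed in a comparison of genotypes by edgeR's quasi-likelihood test. In the SAPAP3 cohort, Xist was above 1 CPM in 1 WT mouse and in 2 KO mice. In each genotype, 1 mouse had Xist without Y chromosome reads, and the other KO mouse had both. With Xist above 1 CPM as a covariate, the value of Ryr1 was -0.47 in the IP, -0.56 in the input and 0.02 in bulk.

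**Figure D5:**
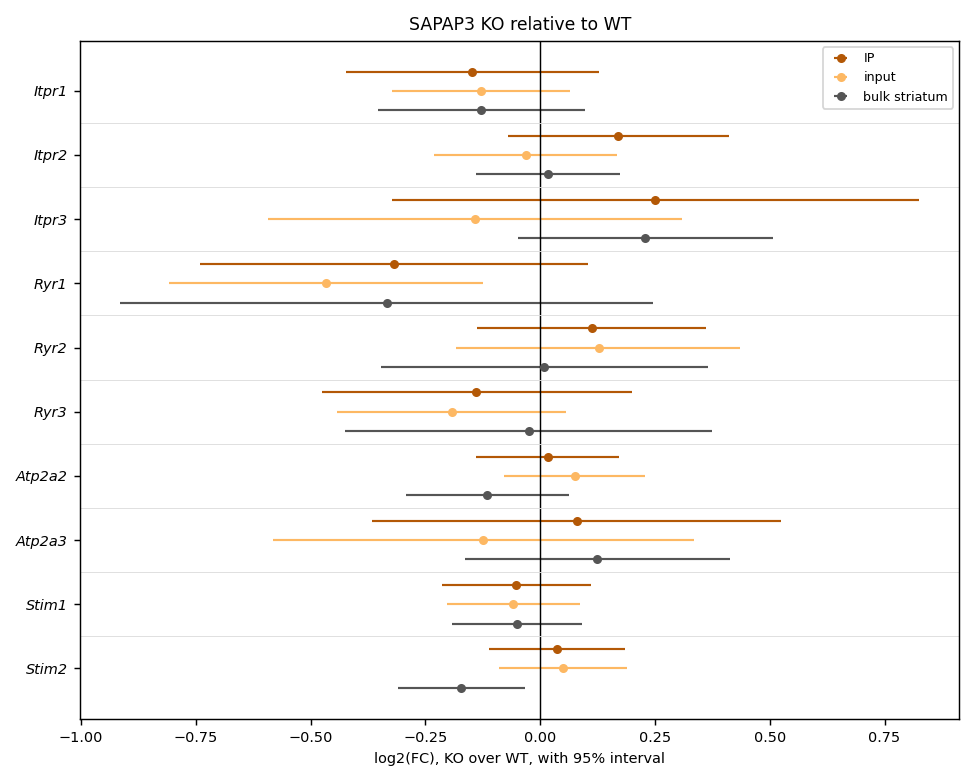
log2(FC) of SAPAP3 KO over WT (horizontal axis) with 95% intervals in IP, input and bulk striatum, 4 libraries against 4 in each. The intervals of 28 of the 30 values include 0; the exceptions are Ryr1 in the input and Stim2 in bulk, and no value passes after adjustment.

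Across the 10 group means, the patterns of the members were set beside those of 14027 genes, as a description by Pearson's r of log2(CPM + 1). The groups share cohorts, and IP and input differ throughout, so many genes reach high values. Itpr2 was most like Ddhd1 (r = 0.997) and Gm2a (0.997), and Itpr1 was most like Plcb1 (0.984) and Spryd7 (0.978). The pattern of Itpr3 was most like those of Emr1 (0.998), which encodes the macrophage antigen F4/80, and C1qc (0.996), a complement gene of microglia. Atp2a3 was most like Arhgap4 and Rasal3 (both 0.993). Atp2a2 had no close match, with Got1 highest at 0.914 and Nap1l2 at 0.901. Ryr1 was most like 1810020O05Rik (0.978) and Fam129c (0.977), Ryr2 like Pak7 (0.997) and Bdp1 (0.994), and Ryr3 like Zcchc8 (0.996) and Rpgr (0.994). Stim1 was most like Cdc42ep3 (0.993) and Xxylt1 (0.992), and Stim2 like Tmem68 (0.995) and Usp7 (0.994). Among the members, Itpr1 and Itpr2 ran in opposite directions over the 10 groups (r = -0.98).

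In the RefSeq annotation of GRCm38.p6, Itpr1 (108213083 to 108551116, plus strand) and Itpr2 (146108299 to 146502258, minus strand) lie on chromosome 6. Annotated transcripts of the opposite strand overlap exons of Itpr1, Itpr2, Itpr3 and Ryr1, and a microRNA lies within an exon of Itpr3. The use of strand in the counting is not given in the sources used here, so such reads cannot be told apart from those of the members.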

How the data were processed

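Counts were taken as the authors deposited them, as raw read counts per gene of the 40 libraries in 1 table of 24060 rows and 24058 symbols, 2 of which were listed more than once. No column was left unused. The submitters' processing notes name STAR, HTSeq and mm10. Tool versions, annotation, use of strand and treatment of reads with several matches are not given in the sources used here. The labels give a stranded, rRNA-depleted library kit, and sources differ on kits and sequencers.

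Libraries were grouped by their labels. edgeR 4.0.16 in R 4.3.3 was run on each comparison with its own 8 libraries, or 16 for interactions, with filterByExpr, TMM factors and the quasi-likelihood test, and p-values were adjusted by Benjamini-Hochberg over all genes tested. It was checked on simulated counts with 200 changed genes. CPM used the library totals. FPKM used the summed exon length of RefSeq GRCm38.p6, which gave a length for 99.2% of symbols. Ranges in CPM or FPKM cover counting error and the spread between mice together. Totals of 23438112 to 84109800 reads give the genes below 10 CPM the least precision.

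The alternatives were limma-voom (limma 3.58.1), the DESeq2 1.42.0 Wald test, its size factors, scaling to 80 ribosomal protein genes, no filter, an FPKM above 5 in at least 4 libraries, Xist as a covariate, leaving out each library, and a replicate block. IP and input of 1 mouse deviated together from their group means (r = 0.248 to 0.792 over 11762 genes, each library closest to its own number in all 4 comparisons). The pairing came from the animal in the labels, and for the neuron cohort from title numbers. There the labels give IP and input different animal numbers, although the number of mice in the design text requires shared mice, so this pairing is less sure. All 10 members are named. From each list of other genes, up to 2 genes per direction with the largest log2(FC) at an adjusted p-value under 0.05 are named for the astrocyte and neuron IPs, except 2 that are not reported here. The members and the lists were chosen with earlier results of these data known. Of 164 list genes, 163 were in the table.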

Additional observations from a re-analysis of the deposited data

Results flagged for a closer look

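In 7 of 100 sets of 4 libraries, 1 library stood apart from the other 3 by more than Dixon's critical value, and chance gives about 5 in 100. Atp2a2 had 1308 CPM in astrocyte IP replicate 4 (1248 to 1257 in the others), and Stim2 had 54.0 CPM in the same library (57.4 to 57.8). Ryr2 had 269 CPM in astrocyte cohort input replicate 4 (291 to 292). In the SAPAP3 cohort WT input, Itpr1 had 2577 CPM in replicate 1 (2127 to 2201), Stim1 had 122 CPM in the same library (99.9 to 103), and Itpr2 had 46.7 CPM in replicate 3 (52.7 to 53.4). Ryr1 had 61.1 CPM in bulk KO replicate 2 (48.1 to 49.1).

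The log2(FC) of IP over input differed between the neuron and the astrocyte RiboTag, by the interaction term, for 9 of the 10 genes, against 70.1% of all genes tested. The differences, neuron minus astrocyte, were 1.27 for Itpr1, -3.47 for Itpr2, 0.49 for Itpr3, 1.11 for Ryr1, 0.45 for Ryr2, 0.88 for Ryr3, 0.41 for Atp2a2, 0.72 for Stim1 and 0.94 for Stim2. Those of Itpr3, Ryr2, Atp2a2 and Stim1 turned negative with ribosomal protein scaling, and those of Ryr3 and Stim2 no longer passed. Sex and cohort differ along with the cell type, and the inputs of Ryr1 and Ryr3 were unlike between the cohorts.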

How the results depend on the processing

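The members' results were counted as kept when they stayed on their side of the threshold. A value that passed the adjusted p-value in either fit also had to keep its sign. Results were kept in 90 of 90 values each under limma-voom, DESeq2, DESeq2 size factors, no filter and the replicate block. They were kept in 30 of 30 with Xist as a covariate, in 60 of 62 under the FPKM filter, in 869 of 880 with 1 library left out, and in 62 of 90 under ribosomal protein scaling. Signs of values that passed in neither fit were not counted, and Ryr1 in bulk went from -0.33 to 0.02 with Xist within the 30 of 30. These counts include the fold change limit for IP over input. By the adjusted p-value alone, the block also added Ryr2 in the neuron IP (0.10) and Stim1 in the WT and KO IPs (-0.17 and -0.12). Without the filter, Itpr1 no longer passed in the KO IP (adjusted p = 0.0674 against 0.0496, edgeR's quasi-likelihood test). Atp2a2 then passed in the WT and KO IPs (0.0437 and 0.0494), and with limma-voom in the KO IP (0.0495). The FPKM filter added Stim1 in the WT and KO IPs (-0.23 and -0.19). Ribosomal protein scaling and DESeq2 also changed such results. The replicate block left the member counts at 5, 3, 3 and 3 for IP over input, at 0 for each genotype comparison, at 9 for the neuron minus astrocyte difference and at 0 for the genotype difference. Genotype numbers did not pair mice (lowest r -0.063, -0.196 and -0.341), and the block left 2 genes in all called in the KO IP, against 4.

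Under ribosomal protein scaling the astrocyte IP had 3 members called (2 higher, 1 lower) instead of 5, and the neuron minus astrocyte difference 5 (2 positive, 3 negative) instead of 9. In that scaling the astrocyte IP value turned to 0.78 for Itpr1, 0.83 for Ryr2, 0.86 for Stim1 and 0.67 for Stim2. The WT IP of the SAPAP3 cohort had 0.39, 0.12, 0.54 and 0.17 for these genes, and the KO IP 0.30, 0.05, 0.47 and 0.09. The neuron minus astrocyte difference turned to -0.25 for Itpr3, -0.30 for Ryr2, -0.33 for Atp2a2 and -0.02 for Stim1. It lost its call for Ryr3 (0.13) and Stim2 (0.19) and gained a call for Atp2a3 (-1.11). The shift of all genes by the scaling (median 1.15 in the astrocyte IP, -0.73 in the difference) moves each member alike. Called genes in all went from 4157 to 9774 (9113 higher, 661 lower, instead of 2072 and 2085) in the astrocyte IP and from 3590 to 5590 (4669 and 921) in the WT IP. The split went from 68 and 2567 to 1043 and 1769 in the neuron IP, from 1915 and 1798 to 4103 and 891 in the KO IP, and from 5856 and 5613 to 1116 and 11397 in the difference.

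The FPKM filter left 3 of 8 tested members called in the astrocyte IP, 0 of 6 in the neuron IP and 1 of 7 in the KO IP, since fewer members were tested. It also added a call of Ryr3 in the WT IP (-1.01) and removed that of Ryr2 in the neuron minus astrocyte difference (0.31). It left 1702, 507, 1270 and 1423 genes called in all for the 4 IPs, 7172 for the neuron minus astrocyte difference against 11469, and 2 in the KO IP over WT IP against 4. DESeq2 called 8, 8 and 17 genes between genotypes against 4, 1 and 0, and 1 against 0 for their interaction, and the cause was not tested.

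With 1 library left out, member counts were 5 to 5 in the astrocyte IP, 3 to 3 in the neuron IP, 3 to 4 in the WT IP, 3 to 3 in the KO IP, 0 to 0 for genotype and 8 to 9 for the neuron minus astrocyte difference. The difference for Itpr3 lost its call in 8 of 16 such fits (without astrocyte input replicate 3, astrocyte IP replicates 1, 2 or 4, neuron cohort input replicates 2 or 4, or neuron IP replicates 2 or 3), at 0.38 to 0.49 with adjusted p of 0.0506 to 0.0821 by edgeR. Atp2a3 gained a call at -0.52 without astrocyte IP replicate 2. With the length of the longest transcript, Atp2a2 was highest in 8 groups instead of 9, and 14 of 100 FPKM levels moved by more than 1 SD. Depth limits Itpr3 and Atp2a3 most.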

Other observations

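In the SAPAP3 cohort, the lists of other store calcium genes gave counts of the same order in both genotypes. Of all genes tested, 10.9% were called higher and 12.1% lower in the WT IP, and 12.3% and 11.5% in the KO IP. Genes of IP3 production and breakdown had 5 called higher and 3 called lower in the WT IP and in the KO IP. Luminal calcium-binding genes had 3 higher in WT and 4 in KO, with 0 lower in each. Store channel partners had 2 higher and 2 lower in WT and 3 and 3 in KO, and the difference between genotypes passed for none of these genes by edgeR's quasi-likelihood test. Store-operated entry had 1 higher and 2 lower in each genotype. Mitochondrial calcium transport had 1 higher in each, pump regulators had 1 lower in each, and extrusion had 0 called.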
